A study of Caenorhabditis elegans with 3 samples.

Results

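The genes described here were 8 alpha- and beta-tubulin genes of the nematode Caenorhabditis elegans, taken as the genes that the annotation of the array platform names tba-1, tba-2, tba-4, tbb-1, tbb-2, tbb-4, mec-7 or mec-12. All 8 were on the array, with 9 probes among them, out of 15168 genes with a probe of their own. RNA of early L4 hermaphrodites was set against a mixed reference on 2-colour microarrays, with 1 group of 3 worm preparations and 1 array for each. The adult molt follows the L4 larval stage. The early L4 RNA was in channel 2 and the reference, called wild type in the labels, was in channel 1 of every array. The genotype, temperature and exact age of the early L4 worms and the make-up of the reference are not in the labels.

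Microtubules are hollow filaments built from dimers of 1 alpha- and 1 beta-tubulin. They form the spindles of dividing germline and embryonic cells, the tracks of motor proteins, and the cores of cilia and of neuronal processes. In C. elegans tba-1 and tba-2 encode alpha-tubulins and tbb-1 and tbb-2 encode beta-tubulins of broad expression, which also build the spindles of the early embryo; tba-4 encodes another alpha-tubulin. mec-12 (alpha) and mec-7 (beta) encode the tubulins of the large-diameter microtubules of the touch receptor neurons, and tbb-4 encodes a beta-tubulin of ciliated sensory neurons.

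Each of the 3 arrays listed 20000 probes, of which 19841 to 19905 had a value. The values were log2 ratios with no spot brightness, so no level of 1 gene could be set against that of another, and the number of arrays limits the precision. Which channel was the numerator is not in the labels. Since their wording puts early L4 before the reference, a ratio of early L4 to reference is the likely direction and is used here. Every sign, order and percentile given here would turn round if the ratio ran the other way. Ratios below are centred on the median of each array. Under that reading a positive value means a ratio of early L4 to reference above the median of its array, and an absolute change in RNA cannot be read from it. Preparation 1 stood somewhat apart: its ratios correlated with those of preparations 2 and 3 at Pearson's r of 0.684 and 0.643, against 0.809 between preparations 2 and 3 (across 15128 genes, which are not independent replicates). The labels do not say that the preparations were separate cultures, so the spread among the 3 arrays may be technical. The p-values of limma combine that spread for a gene with a spread estimated over all genes. They do not reflect any spread of the reference. No array had the channels swapped, so for any gene an effect of the channel cannot be told apart from early L4 against reference. Such an effect would recur on all 3 arrays, and the p-values would not reflect it.

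The comparison asked which tubulin genes differed between early L4 worms and the reference. Of the 8 genes, 4 rose and 0 fell (limma, p adjusted by Benjamini-Hochberg over 15159 genes, threshold 0.05), and 0 were lower at an unadjusted p under 0.05. Among all genes tested 12.6% rose and 10.1% fell, 22.7% together. At an unadjusted limma p under 0.05, 2744 of the 15159 genes were higher and 2511 were lower. The 4 were the alpha-tubulins tba-4 and tba-1 and the beta-tubulins tbb-2 and tbb-1, with mean ratios of 1.73-fold to 3.76-fold. Another gene, tba-2, had 2 probes that disagreed and rose 2.36-fold on the probe that gave a value on every array. The neuronal tubulins tbb-4, mec-7 and mec-12 had ratios of 1.22, 1.24 and 1.28 and did not pass the test. All 8 mean log2 ratios were positive, as were 7521 of the 15159 over all genes tested. That of tba-2, averaged over both probes, was negative without preparation 2 (-0.44) or without preparation 3 (-0.23). With both tba-2 probes averaged the median over the 8 genes was 0.57, against -0.0064 over all genes tested. With tba-2 read from its complete probe the median over the 8 was 1.02. In RNA of whole worms, fewer cells of a type and less RNA per cell cannot be told apart.

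**Figure D1:**
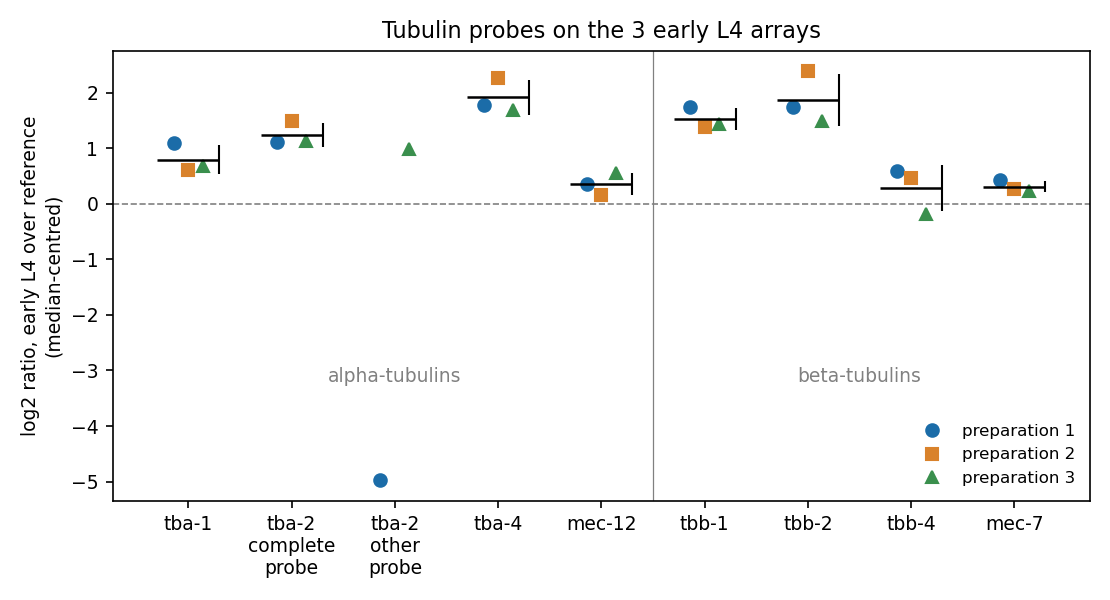
Median-centred log2 ratios of early L4 over reference (vertical axis) for the 9 tubulin probes (horizontal axis), with 1 point for each preparation, a horizontal line at the mean and a vertical line of 1 SD each way for probes with 3 values. tba-2, tba-4, tbb-1 and tbb-2 lie above 1 on every array where tba-2 is read from its complete probe, tba-1 lies between 0.61 and 1.09, and the points of mec-12, tbb-4 and mec-7 lie between -0.18 and 0.58.

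Among the alpha-tubulins other than mec-12, tba-4 (F44F4.11) had centred log2 ratios of 1.78, 2.27 and 1.69 in preparations 1, 2 and 3. All 3 arrays placed it well above 0, and preparation 2 was the highest. Its mean was 1.91 ± 0.31 (SD, n = 3; 95% interval of limma 1.40 to 2.42; adjusted p = 0.000415), which put it at percentile 98.0 of the mean ratios of all genes tested. tba-1 (F26E4.8) had 1.09, 0.61 and 0.68, so it was positive on every array, with preparation 1 the highest. Its mean was 0.79 ± 0.26 (SD, n = 3; interval 0.30 to 1.29; limma adjusted p = 0.0289), at percentile 88.0. The call for tba-1 was the least secure of the 4: without preparation 2 its adjusted p was 0.0831 and without preparation 3 it was 0.0815 (limma).

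tba-2 (C47B2.3) was measured by 2 probes. The probe with a value on every array had centred log2 ratios of 1.11, 1.48 and 1.12 in preparations 1, 2 and 3, close together and all above 1. Its mean was 1.24 ± 0.21 (SD, n = 3; interval 0.74 to 1.73; limma adjusted p = 0.00295 with each probe tested on its own). The other probe had -4.98 in preparation 1, no value in preparation 2 and 0.99 in preparation 3. The value in preparation 1 was deposited as a linear ratio of 0.033, against 1.953 for the same probe in preparation 3 and 2.236 for the complete probe in preparation 1. Both probes carry the same gene and transcript in the platform annotation. They differed by 6.08 on the log2 scale in preparation 1, the widest gap among 435 genes with 2 probes there, where the median gap was 0.55. In preparation 3 they differed by 0.13, against a median gap of 0.23. With both probes averaged, tba-2 had -1.93, 1.48 and 1.06, a mean of 0.20 ± 1.86 (SD, n = 3; limma adjusted p = 0.826) and an SD at percentile 99.9 of all genes. The absence of a call for the averaged gene thus rested on 1 value of 1 probe: without preparation 1 the averaged gene had a mean of 1.27 (limma adjusted p = 0.00515). Whether that spot was faulty was not tested, since no brightness or spot flag was used here.

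Among the beta-tubulins other than tbb-4 and mec-7, tbb-2 (C36E8.5) had centred log2 ratios of 1.74, 2.38 and 1.48 in preparations 1, 2 and 3, all well above 0 with preparation 2 the highest. The mean was 1.87 ± 0.47 (SD, n = 3; interval 1.32 to 2.41; limma adjusted p = 0.000648), at percentile 97.9. tbb-1 (K01G5.7) had 1.75, 1.38 and 1.44, with preparation 1 the highest and the 3 arrays close together. Its mean was 1.52 ± 0.20 (SD, n = 3; interval 1.04 to 2.01; limma adjusted p = 0.00101), at percentile 96.2. Both tbb-1 and tbb-2 stood among the high ratios of each array: the lowest percentile of either on any array was 93.5. Tubulin genes are closely similar in sequence, and whether RNA of 1 gene bound the probe of another was not tested.

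The 3 neuronal tubulins had mean ratios at percentiles 70.5 to 74.3 of all genes tested and did not pass the test. mec-12 (C44B11.3), the alpha-tubulin of touch receptor neurons, had centred log2 ratios of 0.35, 0.15 and 0.55 in preparations 1, 2 and 3, positive on every array and lowest in preparation 2. Its mean was 0.35 ± 0.20 (SD, n = 3; interval -0.13 to 0.84; limma adjusted p = 0.286). mec-7 (ZK154.3), its beta-tubulin partner, had 0.42, 0.27 and 0.24, the narrowest spread of the 8 genes. The mean was 0.31 ± 0.10 (SD, n = 3; interval -0.17 to 0.78; limma adjusted p = 0.343). tbb-4 (B0272.1), the beta-tubulin of sensory cilia, had 0.58, 0.45 and -0.18, so preparation 3 lay on the other side of 0. Its mean was 0.28 ± 0.41 (SD, n = 3; interval -0.25 to 0.81; limma adjusted p = 0.443). These intervals include 0 and differences of up to 0.78 to 0.84 in log2 ratio, so the missed threshold does not show that these genes were unchanged.

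**Figure D2:**
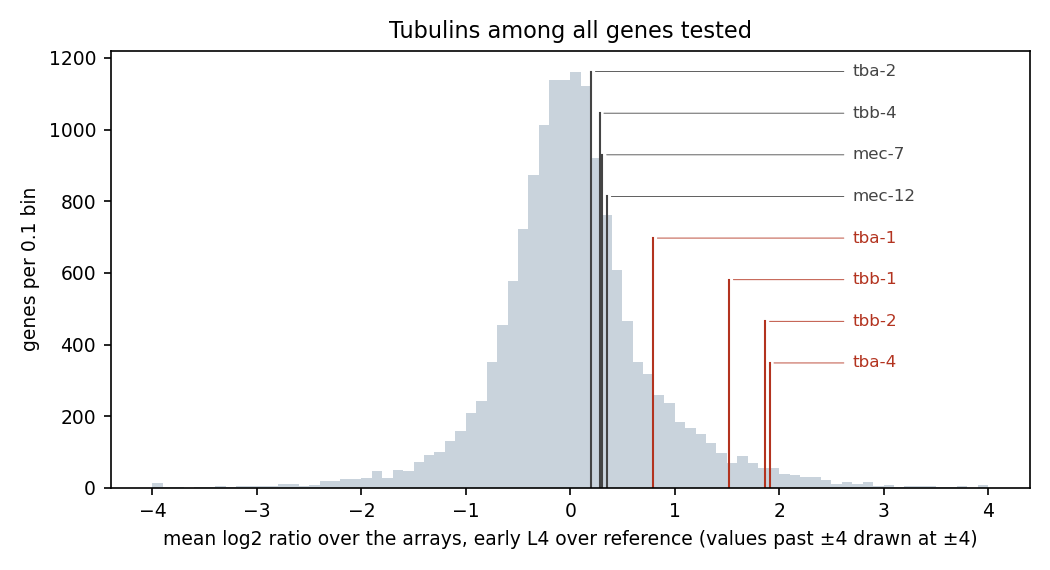
Mean log2 ratios of early L4 over reference (horizontal axis) of the 15159 genes tested, counted per bin of 0.1 (vertical axis), with a line at each tubulin gene (its height has no meaning), red where it passed the threshold and grey where it did not. tba-1, tbb-1, tbb-2 and tba-4 lie in the upper tail, at percentiles 88.0 to 98.0, and tba-2 is drawn as the mean of both its probes, at 0.20.

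Set in order of mean ratio, with tba-2 read from its complete probe, the genes ran from tba-4 through tbb-2, tbb-1, tba-2, tba-1, mec-12 and mec-7 to tbb-4. Neighbours in this order were often not separable: tba-4 minus tbb-2 was 0.04, -0.12 and 0.21 in preparations 1, 2 and 3, and tbb-2 minus tbb-1 was -0.0046, 1.00 and 0.04. tbb-1 minus tba-2 also changed sign between arrays, as did both differences among mec-12, mec-7 and tbb-4. tba-2 minus tba-1 was 0.01, 0.87 and 0.44, positive on every array with a mean of 0.44 ± 0.43 (SD, n = 3). tba-1 minus mec-12 was 0.74, 0.46 and 0.12, a mean of 0.44 ± 0.31 (SD, n = 3).

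With tba-2 read from its complete probe, the 3 neuronal genes and the other 5, tba-1, tba-2, tba-4, tbb-1 and tbb-2, did not overlap on any array. With both tba-2 probes averaged they overlapped in preparation 1, where tba-2 was the lowest of the 8 at -1.93. The 3 are set apart by their known neuronal roles, but the grouping and the choice of probe were made with the values known. The separation does not extend to tba-6, a tubulin of ciliated neurons outside the 8, with a mean of 1.77. Read from the complete probe, the lowest of the 5 in preparation 1 was tba-1 at 1.09 and the highest of the 3 was tbb-4 at 0.58. In preparation 2 they were tba-1 at 0.61 and tbb-4 at 0.45, and in preparation 3 they were tba-1 at 0.68 and mec-12 at 0.55. The gap was therefore wide in preparation 1 and narrow in the other two. All 15 differences, each of 1 of the 5 minus 1 of the 3 neuronal genes, were positive on all 3 arrays, with means of 0.44 to 1.63, and with both tba-2 probes averaged 12 of the 15 kept 1 sign. Among the 5 genes 7 of 10 differences kept 1 sign, and among the 3 neuronal genes 0 of 3 did. With 3 arrays the exact two-sided sign-flip permutation test cannot give a p below 0.25, so of the 28 pairs the 22 with 1 sign had p = 0.25 (0.318 adjusted over the 28 pairs) and the order is a description. With tba-2 read from its complete probe, the median of the 4 alpha genes was 1.101, 1.05 and 0.90 in preparations 1, 2 and 3. That of the 4 beta genes was 1.16, 0.92 and 0.84. With both tba-2 probes averaged, the median of the alpha genes was 0.72, 1.05 and 0.87.

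Of 7 other alpha- and beta-tubulins on the array, 1 rose and 0 fell, against 12.6% and 10.1% of all genes tested, while 6 missed the threshold. In this list 2 genes were higher and 1 was lower at an unadjusted limma p under 0.05. Of the 15159 genes tested, 2744 were higher and 2511 lower by that measure. The median log2 ratio of the list was -0.11. tba-6, an alpha-tubulin known from ciliated sensory neurons, had 2.38, 1.86 and 1.08 in preparations 1, 2 and 3, high on every array and lowest in preparation 3. Its mean was 1.77 ± 0.66 (SD, n = 3; limma adjusted p = 0.00152), within the range of the 4 tubulins that rose and above tbb-4. tba-5 and tba-9, also alpha-tubulins of ciliated neurons, had means of -0.15 ± 0.19 and -0.11 ± 0.39 (SD, n = 3 each). The beta-tubulin ben-1, whose loss gives resistance to benzimidazole drugs, had -0.08, 1.06 and 0.79, and the alpha-tubulin tba-7 had -0.16, 0.73 and 1.04. Both were near 0 in preparation 1 and higher in the others, and without preparation 1 each passed (means of 0.92 and 0.88, limma adjusted p = 0.0142 and 0.0176). tba-8 had a mean of -0.40 ± 0.66 and tbb-6 of -0.60 ± 0.26 (SD, n = 3 each). tbb-6 missed the threshold (limma adjusted p = 0.0818), passed as lower without preparation 1 (0.0301), and also passed after quantile normalization (0.0479). gamma-Tubulin, which nucleates microtubules and is encoded by tbg-1, had -0.38 ± 0.18 (SD, n = 3; limma adjusted p = 0.245), and gip-1 of its complex had 0.0025 ± 0.66 (adjusted p = 0.996).

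Genes that fold, modify, bind or move along tubulin were mixed in direction. Among all genes tested 12.6% rose and 10.1% fell. Of 16 chaperonin and tubulin folding genes, 4 rose and 2 fell, while 10 missed the threshold (median log2 ratio 0.0088). The 4 that rose were all subunits of the cytosolic chaperonin, cct-1, cct-2, cct-6 and cct-7. Its other measured subunits, cct-4 and cct-5, had positive means of 0.25 and 0.75 and missed the threshold. The subunits cct-7 and cct-2 of the cytosolic chaperonin, which folds newly made actin and tubulin, had 1.76 ± 0.94 and 1.21 ± 0.29 (SD, n = 3; limma adjusted p = 0.00402 and 0.00405). coel-1, related to a mammalian tubulin cofactor that can destabilise tubulin, was at the other end with -1.71, -2.01 and -2.08 in preparations 1, 2 and 3, a mean of -1.93 ± 0.19 (SD, n = 3; limma adjusted p = 0.000324). The prefoldin subunit pfd-6 had -0.81 ± 0.18 (adjusted p = 0.0243). Of 8 tubulin-modifying enzymes 1 rose and 2 fell: ttll-12 had 0.81 ± 0.40 (SD, n = 3), while the deglutamylase ccpp-1 had -0.96 ± 0.31 and the glutamylase ttll-4 -0.86 ± 0.18. Without preparation 3 no gene of this list passed, and without preparation 2 a single one did, as lower.

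Of 17 microtubule-associated proteins 0 rose and 3 fell in limma, and the median log2 ratio was 0.15. At an unadjusted limma p under 0.05, 4 were higher and 4 lower, against 2744 and 2511 of the 15159 genes tested. The 2 lowest that passed were mei-2, at -1.74 ± 0.53, and mei-1, at -0.92 ± 0.44 (SD, n = 3; limma adjusted p = 0.00111 and 0.0216), the subunits of the katanin that severs microtubules of the oocyte's meiotic spindle. The third was the tau-related ptl-1, at -0.80 ± 0.10, named after its value was seen. Without preparation 1, 5 genes of this list passed as higher. Of 24 kinesin and dynein genes 5 rose and 1 fell, against 12.6% and 10.1% of all genes tested, with a median of 0.30. klp-17, a kinesin, had 1.85 ± 0.54 and klp-7, a microtubule-depolymerising kinesin, 1.12 ± 0.72 (SD, n = 3; limma adjusted p = 0.000842 and 0.0189), while klp-3 had -0.98 ± 0.51 (adjusted p = 0.0192). Without preparation 2 the number that rose was 2, and without preparation 3 it was 3.

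**Figure D3:**
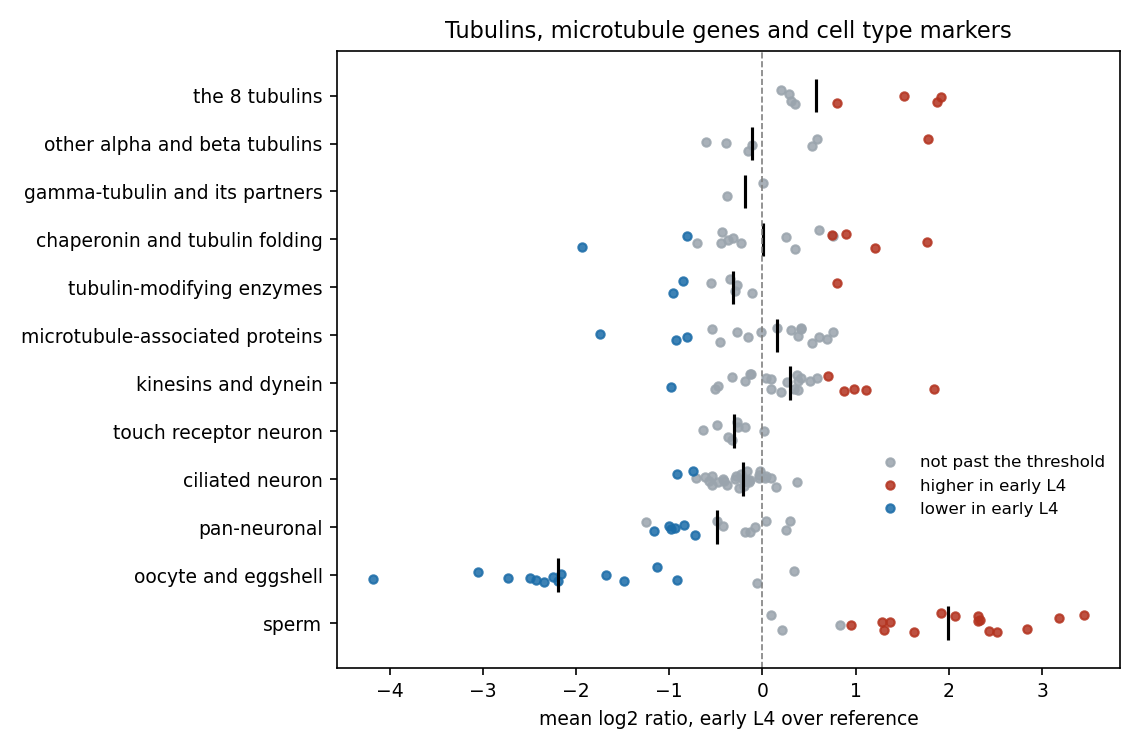
Mean log2 ratios of early L4 over reference (horizontal axis) for the 8 tubulins, for lists of genes that act with microtubules and for cell type markers (rows), with 1 point a gene, red where it rose, blue where it fell and grey where it did not pass, and a black bar at the median of each list. The median of the 8 tubulins, with both tba-2 probes averaged, is 0.57. Those of the touch receptor, ciliated and pan-neuronal markers are -0.30, -0.21 and -0.48.

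Markers of neurons, oocytes and sperm gave these values. Of 8 measured markers of touch receptor neurons 0 passed in limma. At an unadjusted limma p under 0.05, 1 (mec-3) was lower and 0 were higher. Of the 15159 genes tested, 2511 were lower and 2744 higher by that measure. On all 3 arrays 7 of the 8 markers were below 0, against 27.6% of all genes. The list medians were -0.12, -0.36 and -0.27 in preparations 1, 2 and 3. The homeobox gene mec-3, which specifies these neurons, had -0.61, -0.61 and -0.70 (limma adjusted p = 0.0561), and mec-17, the acetyltransferase of alpha-tubulin, had -0.47, -0.24 and -0.11 (adjusted p = 0.412). mec-7 and mec-12 were above 0 on all 3 arrays, as were 26.2% of all genes, so these tubulins lay on the other side of 0 from 7 of the 8 markers. The difference was not tested. Of 31 markers of ciliated neurons 0 rose and 2, bbs-2 and dyf-13, fell, with a list median of -0.21. Over all genes tested the shares that rose and fell were 12.6% and 10.1%. Of 15 pan-neuronal markers 0 rose and 6 fell, with medians of -0.79, -0.20 and -0.39 in preparations 1, 2 and 3; the 2 lowest of those named by rule were the secretory granule gene ida-1 at -1.16 ± 0.27 and the SNAP-25 gene ric-4 at -1.003 ± 0.89 (SD, n = 3 each). Of 15 oocyte and eggshell markers 13 fell and 0 rose (median -2.20), and of 18 sperm markers 15 rose and 0 fell (median 1.99). The counts of 0 in these last 4 lists were also 0 at an unadjusted p under 0.05. The part of any of these cell types in the tubulin ratios was not tested.

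The genes whose ratios on the 3 arrays lay nearest to those of tba-4, by Euclidean distance among 9252 genes with a class name, were the collagen col-182 at 0.14, the actin act-3 at 0.17 and the ATP synthase subunit atp-2 at 0.18 log2 units. act-3 had 1.80, 2.43 and 1.73 in preparations 1, 2 and 3, so it was also highest in preparation 2. For tba-2 with both probes averaged, which had the lowest mean, the nearest were col-103, col-146 and ddo-1, but at distances of 0.41, 0.71 and 0.93. For tbb-4, lowest with tba-2 read from its complete probe and added after the values were seen, the nearest were bed-3, the synaptic gene unc-18 and the chemoreceptor gene srh-44, at 0.03, 0.06 and 0.08. With 3 arrays such likeness is a description, and many genes near 0 lie close to each other.

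Of the 16 protein-coding genes that flank the 8 tubulins in the gene table of assembly WBcel235, 15 were tested. Of these 3 rose and 2 fell, against 12.6% and 10.1% of all genes tested, while 10 missed the threshold. Both flanking genes of tba-4 rose: F44F4.10 had 0.86 and Y19D2B.1 had 1.39 (limma adjusted p = 0.0236 and 0.00211). B0272.3 beside tbb-4 had 1.51 (adjusted p = 0.00172), while tbb-4 itself did not pass. drsh-1 beside tba-1, at -1.27, and C47B2.2 beside tba-2, at -0.77, fell (adjusted p = 0.00234 and 0.0373). One of them, Y53G8B.1, overlaps mec-12 in that assembly. It had 0.0016 (adjusted p = 0.994), and whether its RNA could reach the mec-12 probe was not tested.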

How the data were processed

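The deposited values were log2 ratios of the 2 channels of each array; when raised as powers of 2, at least 99.96% per array were whole thousandths (within 0.01 of a thousandth), so low ratios are coarse. The sources used here do not give the scanner, dyes, background correction, normalization or genome build. Of 20000 probes, 15655 had 1 gene symbol in the platform annotation, 198 had several and 4147 had no listed gene; symbols were updated by gene number for 15569. Each array was centred on the median of all its probes, probes of a gene were averaged, and genes with values on at least 2 arrays (15159) entered a moderated test against 0 (limma 3.58.1 under R 4.3.3, lmFit then eBayes, two-sided, Benjamini-Hochberg, threshold 0.05; 2 residual and 7.59 prior degrees of freedom). The fit was also run on simulated data, and no result given here rests on that run. Differences between tubulins were taken within each array, with an exact sign-flip test. Context and marker lists were described by counts and medians, with no test of a list.

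The 8 genes and the lists were chosen with earlier results of these data known. The rule for named genes took the 8 tubulins and their probes, all measured other alpha- and beta-tubulins and gamma-tubulin genes, the 2 highest and 2 lowest called genes with 1 sign on all arrays in each list, and the 3 genes nearest to the highest and the lowest tubulin; other genes, including single markers and flanking genes, were named after their values were seen. The alternatives run were quantile normalization, uncentred ratios, genes on all 3 arrays, a trended and robust prior, single named probes, all probes, and leaving out each preparation; tba-2 from its complete probe, and each probe on its own with a preparation left out, were added after seeing the data.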

Additional observations from a re-analysis of the deposited data

How the results depend on the processing

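The count of 4 tubulins that rose was also 4 with uncentred ratios, after quantile normalization, on genes with 3 values and with trend and robust settings, and 5 with each probe on its own or all probes. It was 3 to 5 with 1 preparation left out, and 4 to 5 with each probe on its own and 1 preparation left out. tba-4, tbb-1 and tbb-2 passed, and mec-7, mec-12 and tbb-4 did not, in every alternative with a value for each gene. The runs on single probes with a preparation left out or with uncentred ratios gave counts only. tba-1 had 0.65 to 0.89 with 1 preparation left out and lost its call without preparation 2 or 3. tba-2 had -0.44 to 1.27 with 1 preparation left out; probe by probe, also among all probes, it had 1.24 on the complete probe and -1.99 on the other, through the value in preparation 1. Differences between tubulins kept 1 sign in 18 of 28 pairs, also after quantile normalization, in 22 with tba-2 from its complete probe, and in 20 to 23 with 1 preparation left out, where only 2 arrays must share the sign. In the other lists together 55 calls were made, 58 without centring, 62 after quantile normalization and 41 to 67 with 1 preparation left out. The single lists held few calls, so a single preparation moved several counts by over 1.5 times. Without preparation 1, 3 other tubulins rose against 1 with all arrays, 1 fell against 0 (also after quantile normalization), 5 microtubule-associated genes rose against 0, and 1 touch receptor marker fell against 0 (also after quantile normalization). Without preparations 2 and 3 in turn, the motor genes that rose were 2 and 3 against 5, and the modifying enzymes that fell were 1 and 0 against 2, with 0 rising against 1; 1 folding gene and 1 ciliated marker fell against 2 each in both cases, and without preparation 2, 2 folding genes rose against 4. Near 0, gip-1 changed sign with the ratios as deposited (-0.015) and ran from -0.28 to 0.37 with 1 preparation left out (-0.080 without preparation 2), and tba-9 ran from -0.23 to 0.11.
No paired analysis was possible because every array belonged to the same group. The files used give no signal over background, so its limits on these ratios were not examined.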
